A study of Mus musculus with 9 samples.

Results

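The genes described here are 10 immediate early genes: Fos, Fosb, Jun, Junb, Jund, Egr1, Ier2, Dusp1, Atf3 and Nr4a1. They were taken by symbol from the 38215 gene rows of the deposited table. All 10 had a row of their own, and all 10 were among the 14944 genes that passed the filter on low counts. RNA was sequenced from bone marrow cells of C57BL/6J mice of the genotype Jak2V617F, which carry an activating mutation of the kinase Jak2, and all had received tamoxifen. The cells were LSK cells, negative for lineage markers and positive for Sca1 and Kit, the fraction of marrow that holds stem cells and multipotent progenitors. They had been sorted for both GFP and mCherry at the terminal time point. There were 5 libraries titled EV (mice 1 to 5), with the Jak2V617F genotype alone, and 4 in which sgZrsr2 was added (mice 1, 2, 3 and 5), described in the series as having lost Zrsr2, a splicing factor of the minor spliceosome. The labels spell out neither EV nor sg, do not give the mice's age or what links equal mouse numbers, and do not say which promoter or Cre line was used.

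Immediate early genes are switched on within minutes of a signal by transcription factors that are already in the cell, with no need for new protein. Their RNA is mostly short-lived. Fos and Jun proteins pair to form the transcription factor AP-1, and several products, such as the phosphatase Dusp1, act back on the kinases that induced the genes. In blood and other tissues these genes are also known to be induced while cells are dissociated, stained and sorted, so that their level in sorted cells can reflect handling as well as the state in the animal. Times and dates of handling were not among the information used here, and their part in the results was not tested.

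The libraries held 23238264 to 45585532 expected counts. Values are listed below in the order of mouse number in each group. LSK markers were present in all of them (Kit at 247 to 631 CPM, which are counts scaled to the library size with TMM factors, Cd34 at 544 to 705 CPM and Ly6a, which encodes Sca1, at 14.8 to 49.2 CPM). Zrsr2 was at 50.6 to 62.2 CPM in the EV libraries and 31.7 to 44.4 CPM in the sgZrsr2 libraries, without overlap (log2 fold change -0.46, SE 0.12, edgeR adjusted p = 0.714). EV mouse 5, sgZrsr2 mouse 3 and sgZrsr2 mouse 5 stood apart from the other libraries: Vwf, a gene of megakaryocytes and of part of the stem cells, was at 53.1, 91.0 and 85.3 CPM there and at 4.64 to 11.4 CPM in the other 6, and the summed erythroid markers (5 of 7 listed genes in the table) were at 44.2, 91.0 and 55.8 CPM against 1.07 to 2.56 CPM. Summed neutrophil markers were at 163 and 191 CPM in EV mouse 5 and sgZrsr2 mouse 3 and at 6.27 to 52.4 CPM in the rest. Monocyte and macrophage markers summed to 831 to 1015 CPM in EV mice 1 to 3 and to 480 to 663 CPM in the rest. Of the T and NK cell markers, Cd3e was at 0 in 8 of 9 libraries. Nkg7 (45.9 to 92.7 CPM), Klrb1c and Cd4 were found in every library. Because EV mouse 5 and sgZrsr2 mice 3 and 5 stood apart, the differences between groups, the spread and the correlations were also computed without them. The 2 nearest libraries, sgZrsr2 mice 1 and 2, were counted as separate samples, as their labels give them. Their counts differed by more than counting error (chi-square 9.32 per degree of freedom over genes), which does not show that they come from separate animals, since reads amplified by PCR are not independent. The tests measure the spread between these mice, and in bulk RNA fewer cells of a type and less RNA per cell cannot be told apart.

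Transcripts of the 10 genes took between 0.516% and 1.35% of all counts of a library. The share was 1.15%, 1.33%, 1.35%, 0.698% and 0.579% across the 5 EV libraries, and 1.16%, 1.17%, 1.10% and 0.516% across the 4 sgZrsr2 libraries. Mouse 5 was lowest in each group, and the groups overlapped. Among the 14944 genes the best rank by CPM in a library was 10 for Fos, 8 for Fosb and 8 for Jun, and the worst was 116, 438 and 68. Atf3 was the least abundant, at ranks 812 to 8862.

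Per kilobase of exon, mean levels over the 9 libraries ran from 941 CPM per kb for Fos through 606 for Jun, 417 for Jund, 315 for Ier2, 308 for Fosb, 306 for Junb, 259 for Egr1, 158 for Dusp1 and 123 for Nr4a1 to 39.5 for Atf3. The ranges of each pair of neighbours in this order overlapped between libraries. Fos was above Jun per kilobase in 8 of 9 libraries and below it in sgZrsr2 mouse 5, where Fos stood at 311 and Jun at 364 CPM per kb.

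Fos encodes the founding member of the Fos family, which needs a Jun partner to bind DNA as AP-1. Its gene (ENSMUSG00000021250) lies on chromosome 12 at 85473890 to 85477273, plus strand, GRCm38. Fos was at 2532, 3042, 3000, 1558 and 1141 CPM across the 5 EV libraries and at 2979, 2949, 1980 and 731 CPM across the 4 sgZrsr2 libraries. EV mouse 5 and sgZrsr2 mouse 5 were the lowest of their groups, and the groups overlapped over most of their range. The means were 2255 ± 863 (SD, n = 5) and 2160 ± 1060 CPM (SD, n = 4), a log2 fold change of -0.06 (SE 0.40, edgeR quasi-likelihood test with Benjamini-Hochberg adjustment, adjusted p = 0.973).

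Fosb encodes a close relative of Fos with the same need for a Jun partner (ENSMUSG00000003545, chromosome 7, 19302721 to 19310045, minus strand). Fosb was at 2430, 3257, 2762, 1432 and 605 CPM in the EV libraries and at 2710, 2658, 1141 and 336 CPM in the sgZrsr2 libraries. Within each group it followed the same order of libraries as Fos but over a wider range, 9.70-fold between the lowest and the highest library against 4.16-fold for Fos. Between the groups its log2 fold change was -0.29 (SE 0.58, edgeR adjusted p = 0.905).

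Members that move together are often read beside their promoters, and those of Fos and Fosb are shown with that of Nr4a1, the member that departed from them in the values given further on. The RefSeq table for GRCm38.p6 held promoters for 8 of the 10 genes. Capitals mark the letters TGACG on either strand, the core that CREB and ATF proteins can bind, in the 250 bases before the start of the gene: chr12:85473640-85473889 on the plus strand for Fos, chr7:19310046-19310295 on the minus strand for Fosb and chr15:101266596-101266845 on the plus strand for Nr4a1.
Fos: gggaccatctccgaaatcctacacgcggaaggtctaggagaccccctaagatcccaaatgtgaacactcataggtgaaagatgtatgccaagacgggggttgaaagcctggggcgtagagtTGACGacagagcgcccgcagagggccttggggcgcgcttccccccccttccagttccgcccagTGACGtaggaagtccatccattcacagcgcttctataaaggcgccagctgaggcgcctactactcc
Fosb: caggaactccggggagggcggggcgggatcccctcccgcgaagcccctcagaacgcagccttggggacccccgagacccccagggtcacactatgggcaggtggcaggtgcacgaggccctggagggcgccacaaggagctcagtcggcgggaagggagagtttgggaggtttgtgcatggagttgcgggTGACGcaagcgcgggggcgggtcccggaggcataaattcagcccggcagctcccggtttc
Nr4a1: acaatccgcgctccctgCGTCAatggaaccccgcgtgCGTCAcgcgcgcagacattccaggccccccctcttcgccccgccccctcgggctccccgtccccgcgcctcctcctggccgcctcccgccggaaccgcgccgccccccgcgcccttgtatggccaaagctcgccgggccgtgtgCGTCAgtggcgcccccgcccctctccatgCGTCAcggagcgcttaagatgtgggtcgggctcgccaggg
The core was found in 6 of the 8 promoters, 2 times for Fos, once for Fosb and Junb and Atf3, 3 times for Dusp1 and 4 times for Nr4a1, and was not found in those of Jun and Jund. Of all 32851 promoter windows of the same length, 17.77% held it. Of the 3 matches for Dusp1, 2 overlapped as the full site TGACGTCA, which 1.546% of all windows held. The letters GCGNGGGCG, which EGR proteins can bind, were present for Fosb and Nr4a1 (4.697% of all windows) and TATAAA for Fos alone (12.37%). The AP-1 letters TGANTCA (6.749%) and the CArG box of serum response factor (1.467%) were present in none of the 8 windows. Bases further upstream were not searched, and Egr1 and Ier2 had no promoter to search. The TGACG core was taken up after several patterns had been tried on these promoters, so its count describes these windows and is no test.

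Jun encodes the main DNA-binding partner of Fos (ENSMUSG00000052684, chromosome 4, 95049034 to 95052222, minus strand). Jun was at 2204, 2114, 3067, 1196 and 1173 CPM across the 5 EV libraries and at 1921, 2062, 2504 and 1159 CPM among sgZrsr2 libraries. The highest library of each group was mouse 3, and the lowest values of both groups were nearly equal. Jun had a log2 fold change of -0.03 (SE 0.30, edgeR adjusted p = 0.982).

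Junb, a Jun family member that can restrain Jun and that limits growth of myeloid cells (ENSMUSG00000052837, chromosome 8, 84976909 to 84978748, minus strand), was at 669, 811, 1236, 681 and 409 CPM among EV libraries and at 734, 762, 614 and 427 CPM among sgZrsr2 libraries. EV mouse 3 was above every other library, and mouse 5 was lowest in both groups. Junb had a log2 fold change of -0.26 (SE 0.28, edgeR adjusted p = 0.816). Jund, the Jun family member usually present without stimulation (ENSMUSG00000071076, chromosome 8, 70697739 to 70700616, plus strand), was at 774, 675, 989, 406 and 527 CPM among EV libraries and at 627, 700, 1076 and 486 CPM among sgZrsr2 libraries. Its highest value was in sgZrsr2 mouse 3 and its lowest in EV mouse 4. The log2 fold change was 0.10 (SE 0.28, edgeR adjusted p = 0.932). The annotation places Gm11175 on the opposite strand over Jund, with up to 4301 counts in a library against at least 14093 for Jund, and strandedness is not given in the sources used here, so reads of the 2 genes may be shared. For Jun, the antisense gene BC042782 had at most 25.2 counts against at least 40336.

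Egr1 encodes a zinc-finger factor induced by growth factor and stress signals and known to hold stem cells in quiescence (ENSMUSG00000038418, chromosome 18, 34859823 to 34864984, plus strand). Egr1 was at 1316, 1556, 1790, 732 and 441 CPM among EV libraries and at 1473, 1455, 982 and 696 CPM among sgZrsr2 libraries. EV mice 4 and 5 and sgZrsr2 mice 3 and 5 were below the other 5 libraries. Egr1 had a log2 fold change of -0.02 (SE 0.38, edgeR adjusted p = 0.990).

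Nr4a1 encodes Nur77, an orphan nuclear receptor (ENSMUSG00000023034, chromosome 15, 101266846 to 101274792, plus strand). Nr4a1 was at 295, 376, 642, 168 and 592 CPM across the 5 EV libraries and at 315, 306, 757 and 430 CPM across the 4 sgZrsr2 libraries. It was high in EV mouse 5, where Fos, Fosb and Egr1 were at the lowest EV value, and highest of all in sgZrsr2 mouse 3. The log2 fold change was 0.12 (SE 0.39, edgeR adjusted p = 0.943).

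Atf3 encodes a stress-induced repressor of the ATF family (ENSMUSG00000026628, chromosome 1, 191170296 to 191183340, minus strand). It was at 58.3, 107, 265, 87.3 and 19.3 CPM among EV libraries and at 88.2, 89.4, 38.3 and 14.1 CPM among sgZrsr2 libraries, from 508 to 8487 counts a library. Atf3 had the widest range of the 10 genes, 18.7-fold between sgZrsr2 mouse 5 and EV mouse 3. Its log2 fold change of -0.90 was the largest in size but also had the largest error (SE 0.69, 95% interval -2.41 to 0.61, edgeR adjusted p = 0.754), and without EV mouse 3 it was -0.25.

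Ier2, a nuclear protein of less well understood function (ENSMUSG00000053560, chromosome 8, 84661331 to 84662852, minus strand), was at 451, 474, 686, 352 and 355 CPM among EV libraries and at 497, 487, 610 and 402 CPM among sgZrsr2 libraries. It varied least of the 10 genes, 1.95-fold over all libraries, with mouse 3 highest in both groups (log2 fold change 0.11, SE 0.20, edgeR adjusted p = 0.903).

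Dusp1, also called MKP-1, removes phosphate from p38 and JNK kinases and so ends the signal that induced it (ENSMUSG00000024190, chromosome 17, 26505590 to 26508519, minus strand). It was at 560, 693, 687, 451 and 292 CPM among EV libraries and at 612, 606, 537 and 260 CPM among sgZrsr2 libraries, with mouse 5 lowest in both groups. The log2 fold change was -0.09 (SE 0.29, edgeR adjusted p = 0.945).

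**Figure D1:**
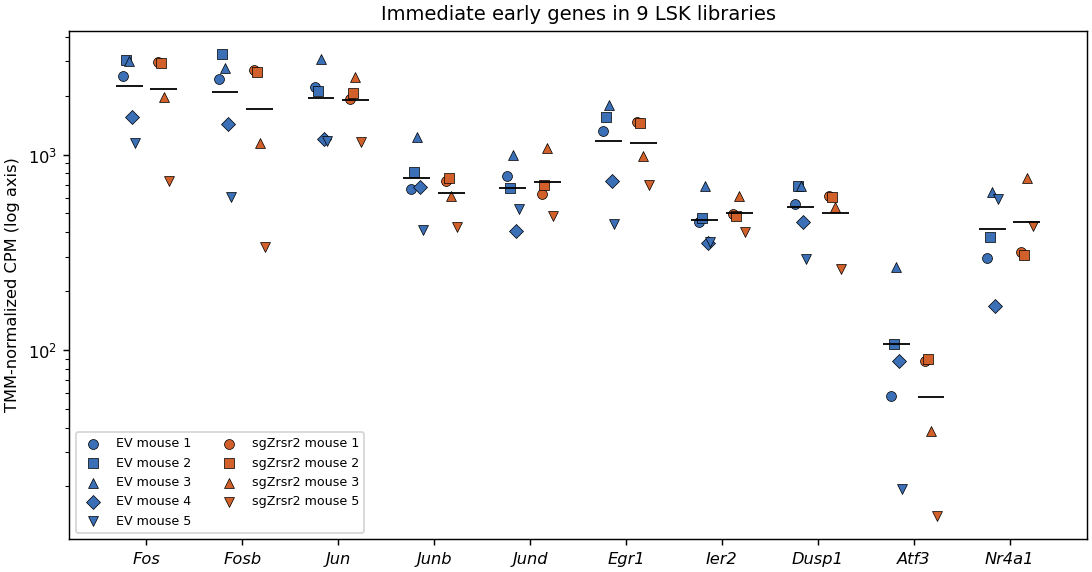
Level of each gene in TMM-normalized CPM on a log axis, with 1 point per library (blue EV, orange sgZrsr2, shape by mouse number) and a line at each group mean. The groups overlap for all 10 genes, and mouse 5 of either group is low for Fos, Fosb and Atf3 but not for Nr4a1.

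No member passed a test of the difference between sgZrsr2 and EV. At an edgeR adjusted p under 0.05 the count was 0 of 10, where 0% of all 14944 genes passed. At an unadjusted p under 0.05 it was 0 of 10, against 6.85% of all genes, and groups that did not overlap in CPM were found for 0 of 10, against 3.06% of all genes. DESeq2 and limma-voom also called 0 members at an adjusted p under 0.05, while DESeq2 called 16 genes of the whole table and limma-voom 0. In the fit 3 members were higher and 7 lower with sgZrsr2, with a median log2 fold change of -0.05 beside -0.01 over all genes. Two-sided exact permutation tests over the 126 divisions of the libraries gave p from 0.429 for Atf3 to 0.976 for Jun, where 0.0159 is the smallest p they can give.

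The intervals show how large a difference these libraries would still allow. Ier2 had the narrowest, a ratio of sgZrsr2 to EV between 0.789 and 1.47. For Fos the 95% interval of the ratio ran from 0.518 to 1.77, for Jun from 0.615 to 1.56, for Egr1 from 0.552 to 1.76 and for Atf3 from 0.188 to 1.53. All 10 intervals included a ratio of 1, and the tests do not show that the groups were alike. Among the 6 libraries that remained without EV mouse 5 and sgZrsr2 mice 3 and 5, Fos was at a log2 fold change of 0.24 and Fosb at 0.13, of opposite sign to all 9 libraries, and again no member passed.

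**Figure D2:**
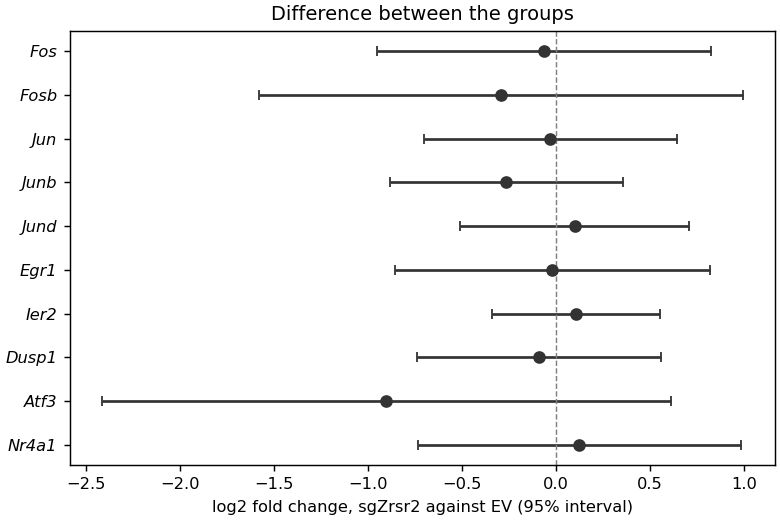
Log2 fold change of each gene, sgZrsr2 against EV, from the edgeR fit over 9 libraries, with 95% intervals as bars and a dashed line at 0. Every interval includes 0, from the narrow one of Ier2 (SE 0.20) to the wide one of Atf3 (SE 0.69).

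Libraries of the same group differed more for these genes than for most. The SD of log2 CPM around the group means was 1.33 for Atf3, 1.19 for Fosb, 0.78 for Fos, 0.72 for Egr1 and 0.72 for Nr4a1, and 0.34 for Ier2. The median over the 10 genes was 0.63, beside 0.31 over all genes, and the median percentile was 80.5. Fosb and Atf3 lay above the 90th percentile of all genes by this spread, 2 of 10 where 10% of genes do by definition, and Ier2 at the 53.8th percentile lay near the middle. Without sgZrsr2 mouse 5 the count was 1, and in the 6 libraries without EV mouse 5 and sgZrsr2 mice 3 and 5 it was 0, where the median SD was 0.46 beside 0.29. The biological coefficient of variation estimated by edgeR was 0.42 for Fos, 0.58 for Fosb and 0.67 for Atf3, beside a trend of 0.20 to 0.21 for genes of the same abundance.

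Deviations of most members from their group means went together. Their mean deviation from the group means was 0.09, 0.34, 0.77, -0.41 and -0.79 log2 units across the 5 EV libraries, and 0.32, 0.34, 0.19 and -0.85 across the 4 sgZrsr2 libraries. EV mice 4 and 5 and sgZrsr2 mouse 5 were thus below their groups and EV mouse 3 furthest above. Over the 45 pairs of members, correlations were computed on deviations from group means in 9 libraries. At a Benjamini-Hochberg adjusted p under 0.05, 27 passed for Pearson's r and 20 for Spearman's rho (two-sided permutation over all pairings). The smallest r that passed was 0.723, a value that 8.91% of all 111654096 pairs of the genes tested reached, and the median r was 0.80 over the 45 pairs and 0 over all pairs. These relations include the 3 libraries of high Vwf. Deviations sum to 0 within each group, so their permutation p is approximate. On values not centred on group means, 23 pairs passed for r and 17 for rho.

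Fos and Fosb had the closest relation (r = 0.985, adjusted permutation p = 0.000124, rho = 1, adjusted permutation p = 0.000248). Junb with Atf3 had r = 0.979 (adjusted permutation p = 0.00031, rho = 0.983, adjusted permutation p = 0.00112) and Jun with Ier2 r = 0.947 (adjusted permutation p = 0.00184, rho = 0.850, adjusted permutation p = 0.0249). Fos, Fosb, Dusp1 and Egr1 had r of at least 0.89 among themselves and Jun, Jund and Ier2 of 0.92 to 0.95, while Fos with Jund had r = 0.61 (adjusted permutation p = 0.119, rho = 0.383). All 36 pairs without Nr4a1 were positive, with r from 0.45 to 0.99 and a median of 0.84. Over 9 libraries Fos with Jun passed by r (0.82, adjusted permutation p = 0.0189) but not by rho (0.467, adjusted permutation p = 0.273). Without EV mouse 5 and sgZrsr2 mouse 5, the 2 libraries farthest from the median of Fos, 11 of 45 pairs passed by r. Fos with Jun (r = 0.61), Junb (r = 0.64) and Atf3 (r = 0.58) no longer did in the 7 libraries left. Within the 6 libraries of low Vwf all 45 pairs were positive (median r = 0.88), beside 50% of all pairs of the genes tested (median r = 0). An r of 0.723 was reached by 14.3% of all pairs in these 6 libraries, against 8.91% over 9. Among members 3 pairs passed by r and 0 by rho, Fos with Fosb among them (r = 0.985, adjusted permutation p = 0.0417). In the 6 libraries Fos had r = 0.91 with Jun, 0.59 with Junb and 0.42 with Atf3. None of these passed (adjusted permutation p = 0.0993, 0.29 and 0.358). Of these 6 libraries, sgZrsr2 mice 1 and 2 were nearly equal (Fos at 2979 and 2949 CPM) and so deviated little from their mean. Each r within the 6 libraries therefore rests mainly on EV mice 1 to 4.

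**Figure D3:**
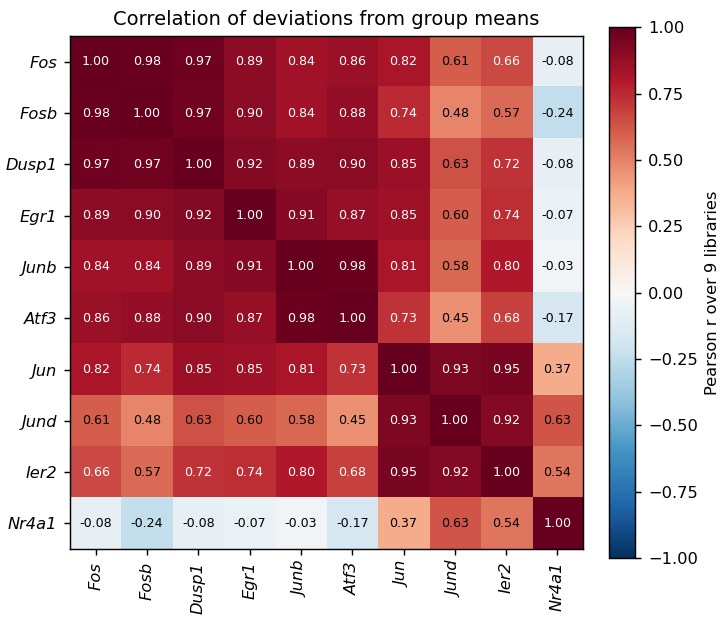
Pearson r between each pair of genes over 9 libraries, on log2 CPM as deviations from the group means, from -1 in blue to 1 in red. The 36 pairs without Nr4a1 are positive, and Nr4a1 has r of -0.08 with Fos and 0.63 with Jund.

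Nr4a1 was the exception. None of its 9 pairs passed over the 9 libraries, and its r with Fos was -0.08 (adjusted permutation p = 0.873, rho = -0.333). Within the 6 libraries of low Vwf that r was 0.89 (adjusted permutation p = 0.0625), a value that rests mainly on EV mice 1 to 4. The ratio of Nr4a1 to Fos in CPM, not corrected for length, was 0.117, 0.124, 0.214, 0.108 and 0.519 across the 5 EV libraries and 0.106, 0.104, 0.382 and 0.589 across the 4 sgZrsr2 libraries. The 3 libraries with high Vwf held the 3 highest ratios. Fosb to Fos went the other way, at 0.530, 0.576 and 0.460 in those libraries against 0.901 to 1.07 in the other 6. Jund to Fos was 0.462, 0.544 and 0.665 there against 0.211 to 0.330. Egr1 to Fos did not set them apart, at 0.387, 0.496 and 0.952 there against 0.4695 to 0.597. The libraries with high Vwf also held more RNA of Car1 (25.4 to 39.3 CPM against 0 to 0.422) and Pf4 (22.0 to 37.3 CPM against 0.979 to 3.42). Of the other listed megakaryocyte markers, Gp1bb and Gp9 were also highest in them. Itga2b (198 to 319 CPM against 109 to 263) and Ppbp (0.726 to 1.72 CPM against 0 to 0.934) did not set them apart. The libraries with high Vwf hold 1 EV and 2 sgZrsr2 mice and were not compared as groups. The part of their other cell types in the result was not tested.

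**Figure D4:**
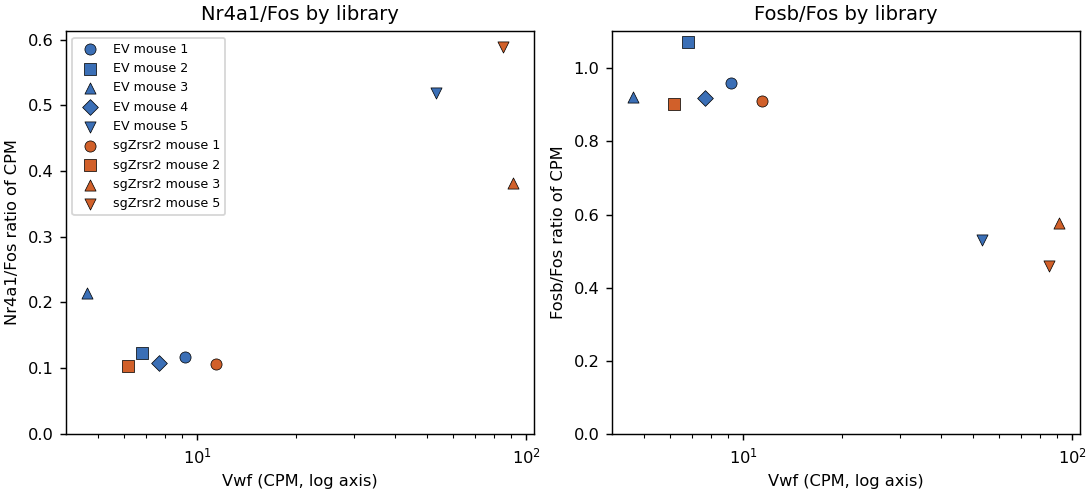
Ratio of Nr4a1 to Fos (left) and of Fosb to Fos (right), in CPM, against the CPM of Vwf on a log axis, with 1 point per library. EV mouse 5 and sgZrsr2 mice 3 and 5, at 53.1 to 91.0 CPM of Vwf, have the highest Nr4a1 to Fos and the lowest Fosb to Fos ratios.

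Of 5 measures of the libraries set against Fos, 1 passed: the summed Hspa1a and Hspa1b, the inducible Hsp70 genes, whose near-identical sequences make their separate counts uncertain. Their sum was at 62.1, 208, 134, 63.2 and 31.9 CPM across the 5 EV libraries and at 56.8, 41.1, 18.8 and 6.59 CPM across the 4 sgZrsr2 libraries. On deviations from group means it followed Fos with r = 0.932 (adjusted permutation p = 0.000882, rho = 0.900, adjusted permutation p = 0.0101) and r = 0.95 without the 2 libraries farthest from the median of the sum. Within the 6 libraries of low Vwf r was 0.72 and did not pass (adjusted permutation p = 0.222, rho = 0.657). Library total (r = -0.34, adjusted permutation p = 0.364, rho = -0.383), the mitochondrial share of counts (r = 0.68, 0.119, rho = 0.733) and the number of genes detected (r = -0.60, 0.142, rho = -0.767) did not pass, nor did the TMM factor (r = -0.56, 0.142, rho = -0.683), the second value in each being the adjusted permutation p of r. The mitochondrial share was 2.27% to 2.41% in the 3 libraries of high Vwf and 2.88% to 4.07% in the others. Within those 6 its r with Fos, which rests mainly on EV mice 1 to 4, had the opposite sign (r = -0.97, adjusted permutation p = 0.0625, rho = -0.886). The part of the mitochondrial share in the result was not tested.

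Among the genes whose pattern was most like the mean standardized pattern of the 10 members, by Pearson r over 9 libraries out of 9620 genes of at least 10 CPM, were Zfp36 (r = 0.993), Slc35e2 (0.967), Dnajb9 (0.965), Klf4 (0.964), Klf6 (0.963), Mcl1 (0.959), Dnajb1 (0.959), Chd2 (0.955) and Cd69 (0.954). Zfp36, tristetraprolin, binds AU-rich elements and speeds the decay of RNAs that carry them. It was at 1203, 1358, 1678, 719 and 632 CPM across the 5 EV libraries and at 1303, 1321, 1267 and 627 CPM among sgZrsr2 libraries. Mouse 5 was lowest in both groups, as for Fos. Within the 6 libraries of low Vwf the r of Zfp36 to the members was 0.987, and those of the other genes named were 0.912 to 0.978. These genes were picked by r over all 9 libraries, which include these 6, so the values are no separate test.

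**Figure D5:**
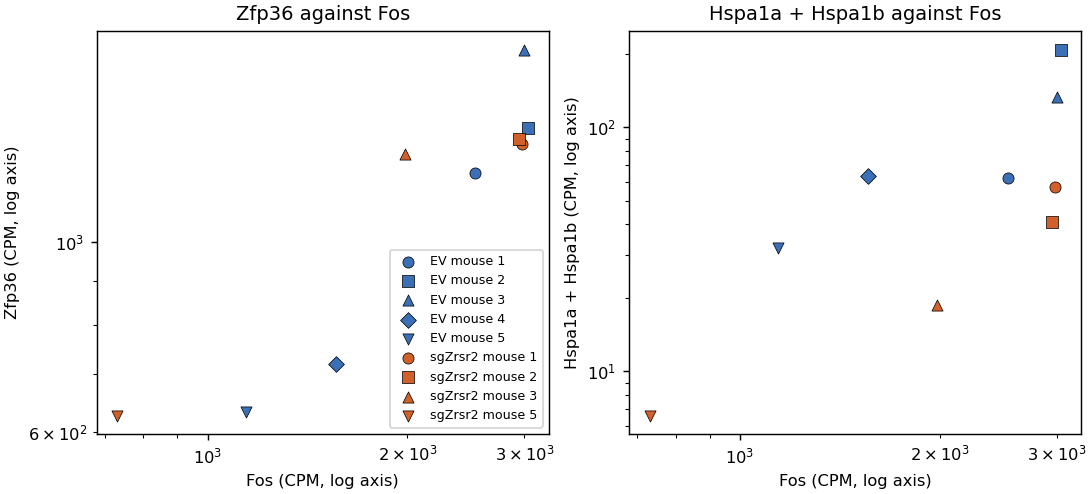
Zfp36 (left) and summed Hspa1a and Hspa1b (right) against Fos, all in CPM on log axes, with 1 point per library. Zfp36 runs from 627 to 1678 CPM and lies lowest in mouse 5 of either group, and the Hspa1 genes run from 6.59 CPM in sgZrsr2 mouse 5 to 208 CPM in EV mouse 2.

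The AU-rich nonamer TTATTTATT, shown in capitals within the 3' UTR sites below (GRCm38, GENCODE M21), was present in the last 500 bases of the transcripts of Fos and Dusp1. It starts 161 bases before the transcript end for Fos, on chromosome 12, and 299 bases before it for Dusp1, on chromosome 17.
Fos: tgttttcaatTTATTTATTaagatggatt
Dusp1: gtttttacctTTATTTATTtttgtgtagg
The nonamer occurred in 2 of 9 members with a window of this length, and in 3.212% of 8716 genes. The shorter TATTTAT, which the nonamer contains, occurred in 5 of 9 members (Fos, Jun, Jund, Dusp1 and Atf3) and in 14.86% of genes. These matches describe the sequence and say nothing of binding.

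Other genes of the response were read from lists written by hand. Of 34 tested further immediate early genes, 0 passed the adjusted threshold, 1 was higher and 1 lower at an unadjusted edgeR p under 0.05, where 3.87% of all genes were higher and 2.98% lower, so the list was near the background. The median log2 fold change was -0.26 beside -0.01 over all genes, and 24 of 34 were lower beside 51.5% of all genes. The median SD within groups was 0.69, close to that of the members. Egr3, a relative of Egr1, was at 5.92 ± 1.37 CPM in EV (SD, n = 5) and 9.50 ± 2.40 CPM in sgZrsr2 (SD, n = 4), with log2 fold change 0.68 (SE 0.24, edgeR adjusted p = 0.714). Sgk1, a kinase induced by serum and glucocorticoids, was at 11.3 to 89.3 CPM in EV and 8.15 to 19.7 CPM in sgZrsr2 (log2 fold change -1.34, SE 0.60, edgeR adjusted p = 0.714), with EV mouse 3 highest.

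Among the signalling proteins upstream, libraries differed less. The median SD within groups was 0.20 over 26 tested kinases, serum response factor partners and CREB coactivators, against 0.63 for the members. Of these, 0 passed the adjusted threshold and 2 of 26 were higher at an unadjusted edgeR p under 0.05, none lower, a count near the 6.85% of all genes that had such a p in either direction. The 2 genes are given by the rule for named genes and did not pass. Elk4, which binds DNA together with serum response factor, was at 65.6 ± 5.24 CPM in EV (SD, n = 5) and 82.4 ± 6.35 CPM in sgZrsr2 (SD, n = 4), without overlap (log2 fold change 0.33, SE 0.10, edgeR adjusted p = 0.714). Crtc3, a coactivator of CREB, had log2 fold change 0.34 (SE 0.12, edgeR adjusted p = 0.714), at 64.9 ± 9.85 and 82.3 ± 5.87 CPM.

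Of 13 tested AP-1 relatives, 0 passed the adjusted threshold, and the median log2 fold change was -0.08. Mafg, a small Maf protein, was among those with the smallest p (log2 fold change 0.39, SE 0.19, edgeR adjusted p = 0.714). Of 15 MAPK phosphatases and feedback inhibitors, 0 passed either threshold, with a median SD of 0.64. Dusp8, which was below 1 CPM in every library, and Dusp10 had the smallest p, with log2 fold changes of -1.28 and -0.47 (edgeR adjusted p = 0.742 and 0.773). Of 8 AU-rich element binding proteins, Zfp36 included, 0 passed either threshold. Hnrnpd (log2 fold change -0.25, edgeR adjusted p = 0.786) and Zfp36l1 (-0.27, 0.792) had the smallest p.

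Heat shock genes, the chaperones that respond to protein damage, held the most genes at a low unadjusted p among these lists. Of 13 tested, 0 passed the adjusted threshold, 5 were lower with sgZrsr2 at an unadjusted edgeR p under 0.05, beside 2.98% of all genes, and 12 of 13 were lower in the fit beside 51.5% of all genes, with a median log2 fold change of -0.40 beside -0.01 over all genes. Hspa1b was at 47.8 ± 32.4 CPM in EV (SD, n = 5) and 12.6 ± 8.30 CPM in sgZrsr2 (SD, n = 4), with log2 fold change -1.93 (SE 0.59, edgeR adjusted p = 0.714). Its near-identical copy Hspa1a had log2 fold change -1.53 (SE 0.72, edgeR adjusted p = 0.714) and is not among the 5, and the split of reads between the copies is uncertain. Hspe1, the partner of the mitochondrial chaperone Hspd1, was at 119 ± 23.6 and 85.3 ± 12.5 CPM without overlap (log2 fold change -0.48, SE 0.16, edgeR adjusted p = 0.714). Hspa8, Hspd1 and Dnaja1 were the other 3. The count was 3 without EV mouse 4 or without sgZrsr2 mouse 5 and 3 in the 6 libraries of low Vwf. Over all genes, 609 of 14793, 1154 of 15220 and 1692 of 15323 had such a p there, in either direction. The 10 immediate early genes had a median log2 fold change of -0.05 between the groups.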

How the data were processed

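The authors deposited RSEM expected counts per gene, not normalized, with 1 column per library. The submitters' processing notes name cutadapt 1.11, RSEM 1.2.30 and GRCm38. The aligner, annotation release and strandedness are not given in the sources used here. Per the labels' protocols, polyadenylated RNA was selected and libraries were amplified by PCR.

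Expected counts were rounded, filtered with filterByExpr (minimum count 10, minimum total 15; 99.9% of counts kept), scaled by TMM (factors 0.894 to 1.07) and tested on all genes with edgeR 4.0.16 (glmQLFit and glmQLFTest, R 4.3.3), with group as the only term and Benjamini-Hochberg adjustment. The SE is the size of the log2 fold change divided by the square root of F. Spread within groups is the SD of log2 CPM (prior count 2) around group means. Lengths and 3' UTRs come from GENCODE M21, overlaps from the gene coordinates deposited with the counts, and promoters from RefSeq. Correlations among members and with library measures were computed with numpy 2.4.6, with ranks from scipy 1.17.1. Those over all pairs of genes and for the most-like genes were computed in R. The fit was also run on 3 sets of simulated counts, drawn independently for each library, without the likeness between libraries described above. At an adjusted p under 0.05 it called 0.0368% of genes with no change. It called 4.76%, 48% and 82.1% of genes with log2 changes of 0.5, 1 and 2. Libraries held 23238264 to 45585532 counts, and the members 508 to 147357 counts each in a library.

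Named genes are the 10 members, in each list the 2 with the smallest p where none passed, and the 10 genes most like the members. Other genes were named after their values were seen. Some genes that the rule selects are not reported here. Members and lists were chosen with earlier results of these data known, and lists were written by hand from general knowledge. The 6 libraries of low Vwf, and counts of heat shock genes under other settings, were added to the correlations, most-like genes and list counts after seeing the data. Alternatives were other scalings and filters, DESeq2 1.42.0, limma-voom (limma 3.58.1), a replicate block, robust dispersion, counts not rounded, and libraries left out or averaged.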

Additional observations from a re-analysis of the deposited data

Results flagged for a closer look

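The 10 members together took 0.516% of the counts of sgZrsr2 mouse 5, far below the other 3 sgZrsr2 libraries at 1.10% to 1.17%. The gap to the nearest library was 0.891 of the whole range of the group. Chance alone sets apart a sample in about 1 of 20 such sets of values, or 1.4 of the 28 examined, and 1 was found. EV mouse 5 had a similar share of 0.579%, within a more evenly spread group.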

How the results depend on the processing

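In all 21 alternatives to the fit, 0 members and 0 listed genes passed the adjusted threshold, and Atf3 and Junb stayed lower with sgZrsr2. Junb, however, ran from -0.42 to -0.02 with 1 library left out, the last without EV mouse 3, and was at -0.08 with limma-voom, and Atf3 ran from -1.21 to -0.25, the last also without EV mouse 3. The other 8 members changed sign in 1 to 8 of the 21 settings, Fosb in 2. With library totals alone Jun was at 0.0225 and Egr1 at 0.0159. With limma-voom Jund was at -0.00177, Egr1 at 0.044 and Nr4a1 at -0.0282. In the 6 libraries of low Vwf Fos was at 0.24, Fosb at 0.13, Jund at -0.0912, Egr1 at 0.127, Dusp1 at 0.0353 and Nr4a1 at -0.25. Leaving out 1 library at a time gave ranges of -0.26 to 0.22 for Fos, -0.61 to 0.0483 for Fosb, -0.19 to 0.19 for Jun, -0.16 to 0.28 for Jund, -0.23 to 0.19 for Egr1, -0.0047 to 0.29 for Ier2, -0.25 to 0.12 for Dusp1 and -0.24 to 0.33 for Nr4a1. The cause was not tested.

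Between libraries of equal mouse number the correlation of deviations was -0.23, -0.09, -0.40 and 0.37 for mice 1, 2, 3 and 5. Libraries of unequal number were not compared, so these values cannot show whether equal numbers pair the libraries. With the replicate block 341 genes had an unadjusted p under 0.05 against 1024 without it, no gene passed the adjusted threshold in either, Jund was at -0.0616 and Nr4a1 at -0.11, and 2 heat shock genes were lower at an unadjusted p under 0.05.

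That heat shock count was 5 in the fit reported, 3 with limma-voom, 3 in the 6 libraries and 3 to 7 with 1 library left out. Genes with such a p in either direction were 1024 of 14944 in the fit reported and 2551 of 14944 with limma-voom. They were 1692 of 15323 in the 6 libraries and 609 to 1292 with 1 library left out, so the background differed between settings. In every setting run, 11 to 13 of the 13 heat shock genes were lower. The count of members above the 90th percentile by spread was 1 to 2 with 1 library left out and 0 in the 6 libraries. Pairs of members with an adjusted p under 0.05 fell from 27 to 11 without the 2 libraries farthest from the median of Fos and to 3 in the 6 libraries. Fewer samples also raise the smallest p there, and r rests mainly on EV mice 1 to 4. Fos with Nr4a1 went from r = -0.08 to 0.30, 0.0153 with sgZrsr2 mice 1 and 2 averaged, and 0.89 in the 6 libraries. DESeq2 called 16 genes and, with those 2 mice averaged, edgeR 1, no member among them. The mitochondrial share went from r = 0.68 with Fos to -0.97 in the 6 libraries.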
